A study of Rattus norvegicus with 54 samples.

Results

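The 30 genes described here make cholesterol and fatty acids or steer that synthesis: 18 sterol enzymes, 5 regulators and 7 enzymes of fatty acid synthesis. They were followed on 54 arrays of Wistar rats, in the liver and in muscle of the hind limb. A gene was taken as measured if a probe set carried its symbol and no other, which held for 28 of 30 members on 29 probe sets, out of 14506 genes so named in the series. These were 17 of 18 sterol enzymes, 4 of 5 regulators and 7 of 7 fatty acid enzymes. *Hmgcs1* and *Srebf1* were not analysed here, *Srebf1* because its probe set also carried the symbol *Pemt*. Liver was sampled in foetuses of 16, 20 and 22 days (F16, F20 and F22), in neonates of 1 and 4 days (P1 and P4) and in adults of 90 days (P90), with 4 arrays each. Muscle was sampled at F16, F18, F20, F22, P1 and P4, with 5 arrays each. Foetuses were delivered by Caesarean section, and each array held total RNA of whole tissue. The labels call the arrays of a group biological replicates. The sources used here do not say whether littermates were among them, so p-values measure the spread between these samples.

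Cholesterol is built from acetyl-CoA through mevalonate, isoprenoids, squalene and lanosterol. The sterol regulatory element binding protein encoded by *Srebf2* switches these enzymes on when sterols in the endoplasmic reticulum run low. Scap carries that protein to the Golgi for cleavage, and the Insig proteins hold Scap back when sterols are plentiful. Fatty acids are made from citrate-derived acetyl-CoA, with malonyl-CoA as the building block and NADPH as the reductant, and liver adjusts this branch to the carbohydrate and fat of the diet. Suckling milk is rich in fat and holds cholesterol.

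Promoters are shown because the members share a regulator that binds DNA next to partner factors. RefSeq promoter windows on GRCr8, 250 bases before to 50 bases after the gene start, could be matched for 22 of the 28 measured members, of which 14 were sterol enzymes. The windows of *Idi1*, *Lss*, *Insig1* and *Srebf2* follow, in lower case with the CCAAT box in capitals on either strand (ATTGG when it lies on the opposite strand) and, in *Srebf2*, a short sterol regulatory element, TCACCCCA, in capitals as well. The *Idi1* window lies at chr17:66547475-66547774 on the minus strand, that of *Lss* at chr20:12118181-12118480 on the minus strand, that of *Insig1* at chr4:8057720-8058019 on the minus strand and that of *Srebf2* at chr7:115543057-115543356 on the plus strand.
Idi1: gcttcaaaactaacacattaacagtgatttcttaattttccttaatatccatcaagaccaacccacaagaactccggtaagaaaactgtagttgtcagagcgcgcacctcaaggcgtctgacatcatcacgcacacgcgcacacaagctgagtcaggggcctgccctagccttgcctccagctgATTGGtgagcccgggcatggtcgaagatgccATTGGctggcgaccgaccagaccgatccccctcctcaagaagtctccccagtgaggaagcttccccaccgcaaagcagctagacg
Lss: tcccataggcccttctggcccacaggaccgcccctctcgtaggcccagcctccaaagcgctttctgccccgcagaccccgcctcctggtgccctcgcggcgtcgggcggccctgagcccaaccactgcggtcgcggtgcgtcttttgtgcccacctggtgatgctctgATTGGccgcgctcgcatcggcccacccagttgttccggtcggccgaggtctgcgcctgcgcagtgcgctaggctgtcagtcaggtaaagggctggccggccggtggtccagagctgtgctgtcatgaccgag
Insig1: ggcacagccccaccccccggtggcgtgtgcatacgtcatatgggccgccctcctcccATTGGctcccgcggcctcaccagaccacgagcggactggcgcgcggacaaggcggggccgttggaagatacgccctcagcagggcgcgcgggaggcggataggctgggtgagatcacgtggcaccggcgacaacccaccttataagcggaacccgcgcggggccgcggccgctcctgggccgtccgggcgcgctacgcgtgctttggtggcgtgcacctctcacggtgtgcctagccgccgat
Srebf2: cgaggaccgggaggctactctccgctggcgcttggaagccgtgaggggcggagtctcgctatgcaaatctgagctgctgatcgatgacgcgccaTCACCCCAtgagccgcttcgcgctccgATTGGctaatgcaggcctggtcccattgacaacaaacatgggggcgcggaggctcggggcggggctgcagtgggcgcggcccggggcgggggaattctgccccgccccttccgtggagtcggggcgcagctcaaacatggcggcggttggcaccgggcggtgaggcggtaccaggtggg

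Motifs were sought on both strands of the 300 bases. CCAAT, the box read by the factor NF-Y, was found in 11 of 14 sterol enzyme windows and in 37.7% of all 27457 rat windows. The longer form GCCAAT, which lies within the same matches and was chosen after its matches had been seen, was in 11 of 14 as well, against 14.3% of all windows. GGGCGG, the GC box read by Sp1, was in 12 of 14 sterol enzyme windows and in 34.9% of all windows. TCACNCCAC, a longer form of the sterol regulatory element, was in 0 of the 22 member windows (1.13% of all), TCACCCCA was in that of *Srebf2* alone (1.41% of all), and the E-box CACGTG was in 3 of 22, those of *Insig1*, *Sc5d* and *Scap* (6.65% of all). These matches describe letters in a short window and were not tested as binding sites.

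All values are log2 signals after robust multi-array average, and a difference of 1 is a change of 2-fold. A change was called at an adjusted p of at most 0.05 in the limma fit over 15310 probe sets, and only called changes are written as rises or falls. Liver and muscle were normalised apart, so levels were compared between ages of a tissue and never between tissues. Array medians spanned 7.64 to 7.85 in liver and 8.65 to 8.84 in muscle, and defining markers of hepatocytes and muscle fibres were strongly expressed in their own tissue. Markers of other tissues were present too. In muscle at F18 the summed log2 signal was 14.09 to 14.46 for 4 keratinocyte markers and 13.71 to 14.20 for 8 fibre markers. At P4 these sums were 14.36 to 14.78 and 15.77 to 15.87. Hepatocyte sums in muscle spanned 11.42 to 13.54 at P4, and muscle fibre sums in liver reached 12.61 at F22. In bulk tissue a smaller number of cells of a type and less RNA per cell cannot be told apart.

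One array in each tissue stood apart for the members. The liver array P1 replicate 1 lay outside the range of the other P1 arrays for 16 of 17 sterol enzymes, 7 of 7 fatty acid enzymes and 4 of 4 regulators, and it was closer to the F22 mean than to the mean of the other P1 arrays for 15, 6 and 4 of them. Its file label ends in a number and those of the other P1 livers in letters, a difference that the sources used here do not explain. Over all probe sets tested it correlated at 0.9831 with the other P1 arrays and at 0.9832 with P4, the closest group. P1 replicates 3 and 4 were also closest to P4, at 0.9912 and 0.9899. The muscle array F22 replicate 5 lay outside the range of the other F22 arrays for 16 of 17 sterol and 6 of 7 fatty acid enzymes, and nearer to P1 for 15 and 5 of them. It correlated at 0.9881 with the F22 arrays and at 0.9891 with the P1 arrays of muscle. Both arrays were kept. The counts by branch in comparisons of P1 liver or of F22 muscle are also given without them. All groups of a tissue share the fit, so these arrays also enter the SE of the other comparisons.

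In liver, 13 of 17 sterol enzymes fell at F22 against F20, 12 fell at P1 against F22, and 14 rose in adult liver against P4. The shares of all probe sets called in these directions were 21.6%, 21.9% and 28.8%. *Acat2*, the cytosolic thiolase that joins acetyl-CoA units at the start of the pathway, had the widest course among the sterol enzymes. Its values were 10.73, 10.78, 10.74 and 10.72 at F16, 11.17, 11.09, 11.06 and 11.06 at F20, and 9.80, 9.94, 9.80 and 9.56 at F22. After birth it had 9.55, 7.44, 7.39 and 7.59 at P1, 8.23, 8.34, 8.35 and 8.09 at P4, and 10.19, 10.06, 10.09 and 10.05 at P90. Each P4 array lay below every foetal array, and 3 of 4 P1 arrays lay lower still, while P1 replicate 1 lay near F22.

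*Idi1*, the isomerase of isopentenyl diphosphate, had 9.55, 9.52, 9.64 and 9.43 at F16, 9.92, 9.88, 9.89 and 9.79 at F20, and 8.88, 9.11, 8.85 and 8.56 at F22. After birth its values were 8.58, 6.38, 7.01 and 7.09 at P1, 8.13, 8.53, 8.36 and 7.84 at P4, and 9.93, 9.81, 9.93 and 9.96 at P90. The adult arrays were level with F20 and did not overlap with P4. *Sqle*, squalene epoxidase, had 10.002, 9.94, 9.98 and 10.02 at F16, 10.87, 10.94, 10.87 and 10.85 at F20, and 9.88, 9.97, 10.02 and 9.75 at F22. At the postnatal ages it had 10.53, 7.65, 7.66 and 8.02 at P1, 8.98, 9.48, 9.30 and 8.998 at P4, and 9.90, 9.82, 9.92 and 9.90 at P90. In this gene P1 replicate 1 was the highest of all postnatal arrays, and the other 3 P1 arrays were the lowest of the whole liver series.

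*Lss*, which closes squalene epoxide into lanosterol, had 10.01, 10.12, 10.26 and 10.13 at F16, 10.95, 11.11, 11.04 and 10.98 at F20, and 9.78, 9.75, 10.07 and 9.95 at F22. The postnatal arrays read 10.17, 8.14, 8.24 and 8.43 at P1, 8.98, 9.61, 9.54 and 9.03 at P4, and 10.27, 10.05, 10.27 and 10.06 at P90. The pattern of high F20, low P1 and restored P90 levels recurred, and P1 replicate 1 lay above every F22 array. *Dhcr7*, the reductase of the final step to cholesterol, had 9.92, 9.90, 9.95 and 9.88 at F16, 10.23, 10.17, 10.05 and 10.12 at F20, and 9.38, 9.42, 9.27 and 9.18 at F22. From P1 onwards it had 9.55, 7.99, 8.48 and 8.54 at P1, 8.84, 8.83, 8.77 and 8.55 at P4, and 11.16, 11.03, 11.01 and 10.95 at P90. Unlike in the other 4 enzymes shown, the adult arrays of *Dhcr7* all lay above every foetal array.

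**Figure D1:**
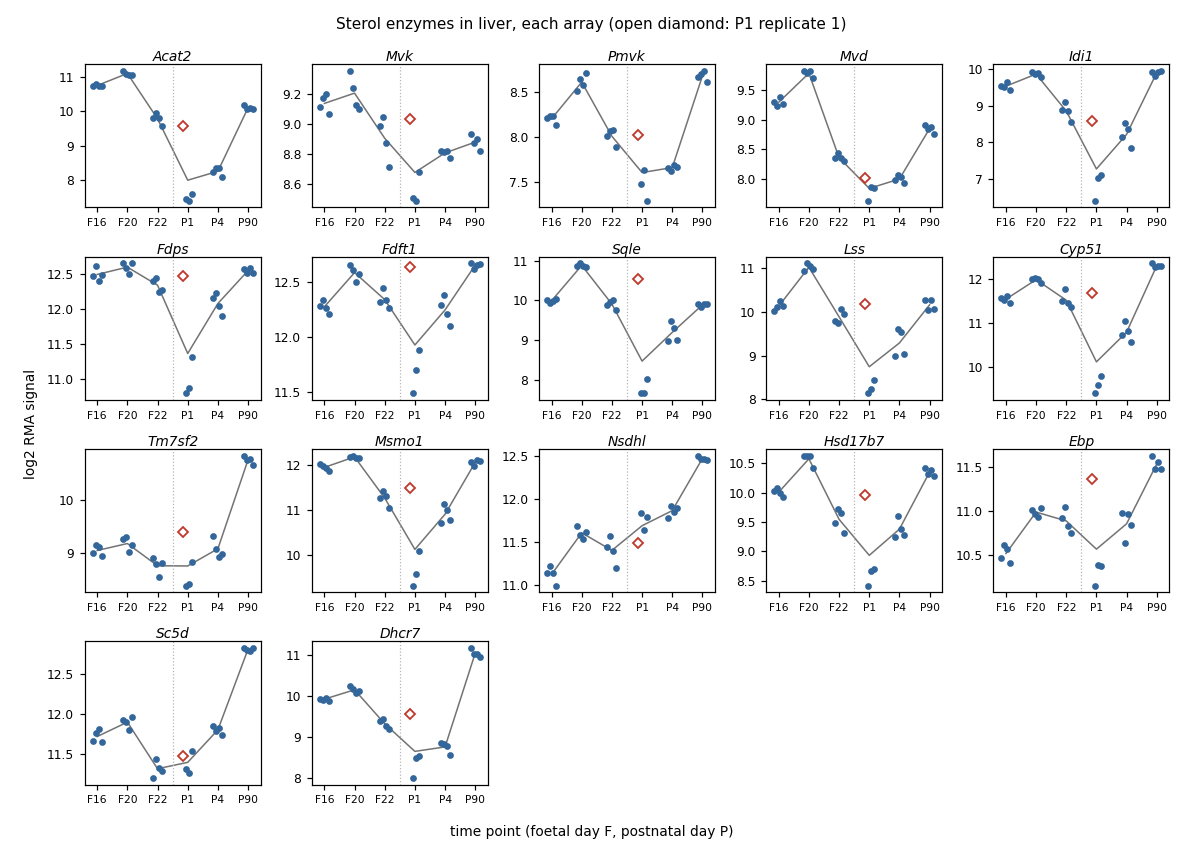
Log2 RMA signal (y axis) of the 17 measured sterol enzymes in each liver array at 6 ages (x axis). Points are arrays, the grey line joins the group means, the open diamond is P1 replicate 1 and the dotted line marks birth; 3 of 4 P1 arrays of *Acat2* lie between 7.39 and 7.59 and the 4 P90 arrays between 10.05 and 10.19.

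At F20, 7 sterol enzymes rose against F16 and 0 fell, with a median log2 change of 0.35 over the 17, against -0.04 over all probe sets tested. Among all probe sets 9.22% rose and 13.2% fell in this comparison. The 7 were *Pmvk*, *Mvd*, *Lss*, *Nsdhl*, *Hsd17b7*, *Ebp* and *Sc5d*. *Sqle* had the largest change of the 17, 0.89, with means of 10.88 at F20 and 9.99 at F16 and no overlap of arrays. It was not called, in a fit whose SE also takes in P1 replicate 1. *Mvd*, the decarboxylase of mevalonate diphosphate, averaged 9.79 at F20 and 9.29 at F16 (0.49 ± 0.07, SE, adjusted p = 6.4e-06 by limma). Leaving out single arrays lowered the count to between 3 and 5, with *Pmvk*, *Mvd* and *Nsdhl* called each time.

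At F22, 0 sterol enzymes rose against F20 and 13 fell, with a median of -0.60 (15.3% of all probe sets rose and 21.6% fell, median -0.02). *Mvd* fell most, to a mean of 8.36 at F22 against 9.79 at F20 (-1.43 ± 0.07, SE, adjusted p = 1.4e-13 by limma). *Acat2* fell by 1.32 ± 0.28 (SE, adjusted p = 0.00058), and *Lss* fell by 1.13 ± 0.27 (adjusted p = 0.0019), both in the limma fit. The 4 that were not called were *Fdps*, *Fdft1*, *Cyp51* and *Ebp*, with mean log2 changes between -0.47 and -0.10. *Sqle* was not called when any single array of either age was left out (adjusted p between 0.058 and 0.087). *Nsdhl* and *Tm7sf2* each lost the call when 1 of several arrays was left out. Without F22 replicate 3 their adjusted p was 0.066 and 0.1 by limma. *Mvk* was not called without F22 replicate 4 (adjusted p = 0.056 by limma).

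At P1, 12 sterol enzymes fell against F22, and *Nsdhl*, a dehydrogenase that takes part in removing methyl groups from the sterol ring, rose (14.8% of all probe sets rose and 21.9% fell). The median log2 change was -0.61, against 0.00 over all probe sets. *Acat2* averaged 7.99 at P1 and 9.78 at F22, a fall of 1.78 ± 0.28 (SE, adjusted p = 1.9e-05 by limma). *Nsdhl* averaged 11.69 at P1 and 11.40 at F22, a rise of 0.28 ± 0.07 (SE, adjusted p = 0.0039 by limma). *Fdft1* and *Hsd17b7* each lost the call when 1 of several arrays was left out. Without P1 replicate 2, for instance, their adjusted p was 0.13 and 0.085 by limma.

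Without P1 replicate 1 the count at P1 was 1 higher and 14 lower, with a median of -0.95 (16.3% of all probe sets rose and 22.5% fell). *Acat2* then fell by 2.30 ± 0.07 and *Sqle* by 2.13 ± 0.10 (SE, adjusted p = 1.7e-15 and 2.3e-13 by limma), about 4.94-fold and 4.37-fold lower at P1. With all 4 P1 arrays the fall of *Sqle* was 1.44 ± 0.37. *Tm7sf2* and *Sc5d* were the 2 enzymes that were called neither way without this array, with means of 8.55 and 11.37 at P1 against 8.77 and 11.31 at F22.

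At P4, 3 sterol enzymes, *Idi1*, *Fdps* and *Sc5d*, rose against P1 and 0 fell, with a median of 0.33 (4.87% of all probe sets rose and 6.10% fell). Without P1 replicate 1, 15 rose and 0 fell, with a median of 0.55 (6.45% rose and 8.80% fell). *Idi1* and *Fdps* each lost the call when 1 of several arrays of either age was left out. Without P1 replicate 2, for instance, their adjusted p was 0.091 and 0.12 by limma. No sterol enzyme fell in either fit. *Sc5d*, the desaturase of lathosterol, rose by 0.41 ± 0.06 with all arrays and by 0.43 ± 0.07 without this array (SE, adjusted p = 0.00016 and 0.00011 by limma).

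At P4 against F22, a comparison of no P1 mean, 2 sterol enzymes rose and 5 fell (16.5% of all probe sets rose and 23.8% fell). The P1 arrays still entered the SE, and without P1 replicate 1 the count was 3 higher and 10 lower (18.1% of all probe sets rose and 25.5% fell). The risers were *Nsdhl*, by 0.46 ± 0.07, and *Sc5d*, by 0.49 ± 0.06 (SE, adjusted p = 3.1e-05 and 1.4e-06 by limma). *Acat2* averaged 8.25 at P4 and 9.78 at F22, a fall of 1.52 ± 0.28 (SE, adjusted p = 0.00012 by limma), with an SE of 0.07 without this array. *Sqle*, *Idi1*, *Lss*, *Fdps* and *Msmo1* were then called lower as well and *Tm7sf2* higher. With all arrays the other enzymes that fell were *Pmvk*, *Mvd*, *Cyp51* and *Dhcr7*, and the median over the 17 was -0.35. *Cyp51* lost the call without any single F22 array, as without F22 replicate 2 (adjusted p = 0.11 by limma). It also lost the call without P4 replicate 1, 3 or 4 alone. Without P1 replicate 1, *Cyp51* was called, with a fall of 0.73 ± 0.09 (SE, adjusted p = 1.3e-06 by limma). *Dhcr7* was not called without P4 replicate 4 (adjusted p = 0.055 by limma).

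In adult liver, 14 sterol enzymes rose against P4 and 0 fell, with a median of 0.97, against 0.07 over all probe sets (28.8% of which rose and 27.1% fell). *Dhcr7* averaged 11.04 at P90 and 8.75 at P4, a rise of 2.29 ± 0.18 (SE, adjusted p = 2.2e-10 by limma), or 4.89-fold. *Tm7sf2*, a sterol reductase, averaged 10.77 at P90 and 9.09 at P4 (1.68 ± 0.15, SE, adjusted p = 1.5e-09 by limma). The 3 that were not called were *Mvk*, *Fdps* and *Sqle*, and *Mvk* had the smallest change, with means of 8.88 at P90 and 8.81 at P4. *Sqle* averaged 9.88 at P90 and 9.19 at P4, and *Fdps* 12.55 and 12.08. In neither did the P90 arrays overlap with P4, and P1 replicate 1 enters the SE here too. Against F22, 11 sterol enzymes rose at P90 and 0 fell (39.3% of all probe sets rose and 31.6% fell), led by *Tm7sf2*, *Dhcr7* and *Sc5d*.

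Among the liver regulators, *Srebf2* fell at P1 against F22 and rose at P90 against P4, as most sterol enzymes did. The change of *Srebf2* was not called at F22 against F20, where most sterol enzymes fell, nor at P4 against P1. Its values were 10.22, 10.33, 10.24 and 10.23 at F16, 10.31, 10.36, 10.23 and 10.24 at F20, and 10.26, 10.18, 10.12 and 10.18 at F22. Its postnatal values were 9.94, 9.36, 9.05 and 9.55 at P1, 9.56, 9.80, 9.53 and 9.54 at P4, and 10.35, 10.27, 10.33 and 10.20 at P90. Every P1 array lay below every foetal array, and the P90 arrays were back in the foetal range. *Srebf2* averaged 9.48 at P1 and 10.19 at F22, a fall of 0.71 ± 0.11 (SE, adjusted p = 2.2e-05 by limma), or of 0.86 ± 0.09 without P1 replicate 1. It rose by 0.68 ± 0.11 at P90 against P4 (adjusted p = 2e-05 by limma).

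*Insig2* rose at P1, where *Srebf2* fell, and held the widest course of the regulators. Its values were 8.14, 8.18, 8.18 and 7.92 at F16, 8.34, 8.46, 8.42 and 8.35 at F20, and 8.37, 8.40, 8.37 and 8.28 at F22. After birth it had 8.86, 9.59, 9.84 and 9.77 at P1, 9.36, 9.08, 9.11 and 9.11 at P4, and 12.16, 12.22, 12.15 and 12.19 at P90. All P1 arrays lay above all foetal arrays, P1 replicate 1 being the lowest of them, and all P90 arrays lay far above. *Insig2* averaged 9.51 at P1 and 8.36 at F22 (1.16 ± 0.13, SE, adjusted p = 2.7e-07 by limma), and the difference was 1.37 ± 0.07 without P1 replicate 1. It averaged 12.18 at P90 and 9.16 at P4, a rise of 3.01 ± 0.13 (SE, adjusted p = 3.9e-15 by limma) or 8.08-fold.

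*Insig1*, its relative, had 10.79, 10.72, 10.78 and 10.73 at F16, 12.14, 11.95, 12.04 and 12.05 at F20, and 11.61, 11.32, 11.69 and 11.25 at F22. After birth its values were 12.82, 10.08, 11.38 and 9.82 at P1, 10.83, 10.89, 11.98 and 10.89 at P4, and 12.25, 12.18, 12.27 and 12.11 at P90. The P1 arrays of this gene were scattered over a wider range than those of any other age, and P4 replicate 3 lay above the other P4 arrays. *Insig1* averaged 12.04 at F20 and 10.76 at F16 (1.29 ± 0.39, SE, adjusted p = 0.02 by limma), and its other probe set rose by 1.23 ± 0.38. At P1 its mean was 11.02, against 11.47 at F22, and the change was not called. Without P1 replicate 1, *Insig1* fell by 1.04 ± 0.26 (SE, adjusted p = 0.003 by limma).

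*Scap*, the escort protein, changed least. Its liver values were 9.94, 10.11, 10.004 and 9.86 at F16, 10.33, 10.27, 10.13 and 10.13 at F20, and 10.26, 10.29, 10.14 and 10.27 at F22. At the postnatal ages it had 9.91, 10.20, 10.46 and 10.23 at P1, 10.08, 10.02, 10.11 and 10.15 at P4, and 10.004, 9.81, 9.97 and 9.82 at P90. The ages F20 to P4 overlapped, and every P90 array lay below the F20, F22 and P4 arrays. *Scap* averaged 9.90 at P90 and 10.24 at F22 (-0.34 ± 0.09, SE, adjusted p = 0.0014 by limma).

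In the fatty acid branch of liver, 4 of 7 enzymes fell and 2 rose at P1 against F22, and 6 rose in adult liver against P4. The shares of all probe sets called in these directions were 21.9%, 14.8% and 28.8%. *Scd*, the desaturase that makes oleate, had 10.02, 10.37, 10.17 and 10.03 at F16, 11.05, 10.86, 10.69 and 11.02 at F20, and 8.78, 8.79, 9.08 and 9.18 at F22. The postnatal arrays read 11.28, 8.37, 7.82 and 8.31 at P1, 7.40, 7.54, 7.48 and 7.24 at P4, and 12.33, 12.22, 12.31 and 12.23 at P90. P1 replicate 1 was the highest array of *Scd* before adulthood, while the 4 P4 arrays were the lowest of the liver series. *Scd* averaged 12.27 at P90 and 7.41 at P4, a rise of 4.86 ± 0.42 (SE, adjusted p = 9.8e-10 by limma) or 29.0-fold.

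*Acacb*, the acetyl-CoA carboxylase of the mitochondrial surface, had 6.73, 6.60, 6.72 and 6.69 at F16, 6.81, 6.96, 6.61 and 6.69 at F20, and 6.99, 6.77, 6.71 and 6.92 at F22. From P1 onwards it had 7.40, 7.05, 7.02 and 7.08 at P1, 7.17, 7.02, 7.22 and 6.76 at P4, and 10.16, 9.99, 10.02 and 9.76 at P90. Its values were low and close together until P4 and high in all 4 adult arrays. *Acacb* rose by 2.94 ± 0.11 at P90 against P4 (SE, adjusted p = 8.5e-17 by limma). *Me1*, the malic enzyme that supplies NADPH, had 7.20, 7.06, 7.05 and 7.15 at F16, 7.09, 7.05, 7.27 and 7.14 at F20, and 7.28, 7.44, 6.97 and 7.26 at F22. Its postnatal values were 7.22, 7.77, 7.74 and 7.71 at P1, 7.44, 7.104, 7.53 and 7.31 at P4, and 10.01, 9.72, 9.93 and 9.94 at P90. *Me1* rose by 2.55 ± 0.11 at P90 against P4 (SE, adjusted p = 4e-15 by limma), and no adult array overlapped with a younger one.

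**Figure D2:**
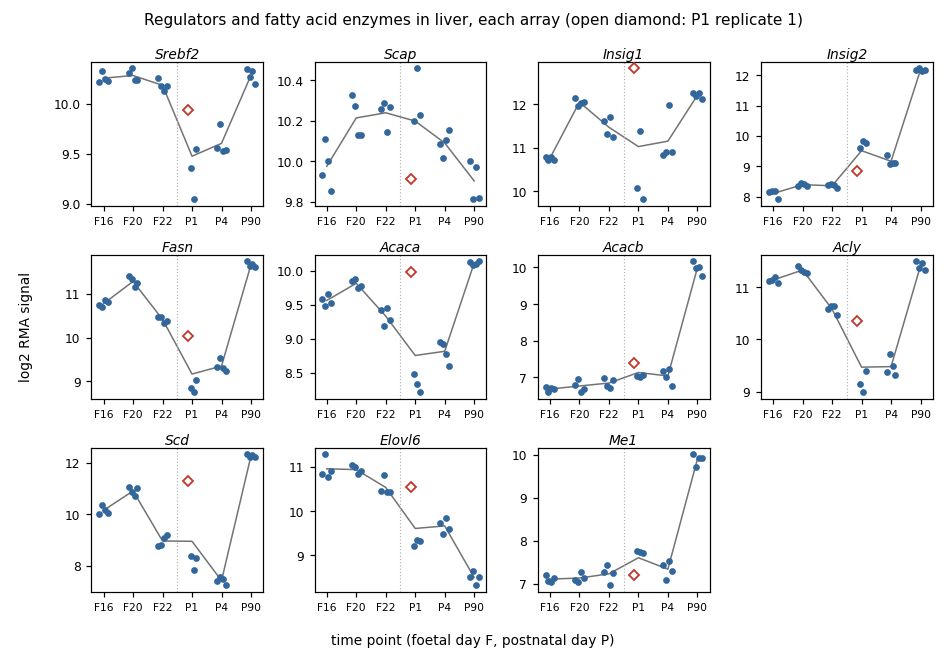
Log2 RMA signal (y axis) of the 4 measured regulators and 7 fatty acid enzymes in each liver array at 6 ages (x axis). Points are arrays, the grey line joins the group means, the open diamond is P1 replicate 1 and the dotted line marks birth; the *Insig2* arrays lie between 12.15 and 12.22 at P90 and between 8.28 and 8.40 at F22.

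Before birth, 1 of the 7 fatty acid enzymes, *Fasn*, rose at F20 against F16, and *Fasn*, *Acly* and *Scd* fell at F22 against F20. For these steps 9.22% of all probe sets rose and 13.2% fell at F20, and 15.3% rose and 21.6% fell at F22. The rise of *Fasn* at F20 lost its call without 6 of the 8 arrays compared, each left out alone (adjusted p between 0.05 and 0.075 by limma), so the count was then 0. *Fasn*, the synthase that assembles palmitate, averaged 10.41 at F22 and 11.28 at F20 (-0.87 ± 0.17, SE, adjusted p = 0.00019 by limma). *Scd* averaged 8.96 at F22 and 10.91 at F20, a fall of 1.95 ± 0.42 (adjusted p = 0.00069 by limma).

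At P1 against F22, 4 enzymes fell, *Fasn*, *Acaca*, *Acly* and *Elovl6*, and *Acacb* and *Me1* rose (14.8% of all probe sets rose and 21.9% fell). *Fasn* fell by 1.25 ± 0.17 (SE, adjusted p = 2e-06 by limma), and *Acly*, which splits citrate into acetyl-CoA, fell by 1.11 ± 0.17 (adjusted p = 1.6e-05). Without P1 replicate 1, 1 enzyme rose, *Me1*, and 5 fell, the fifth being *Scd*, which fell by 0.79 ± 0.13 (SE, adjusted p = 2.2e-05 by limma), against 16.3% and 22.5% of all probe sets. *Fasn* then fell by 1.53 ± 0.07 and *Acly* by 1.40 ± 0.09. *Acacb* was not called without this array (adjusted p = 0.14 by limma). Nor was it called without F22 replicate 2 (0.089) or F22 replicate 3 (0.11), and *Me1* was not called without F22 replicate 3 (0.058). *Acaca* lost its call in the same way, as without P1 replicate 4 (0.19).

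At P4 against P1, only *Scd* was called, with a mean of 7.41 at P4 and 8.95 at P1 (4.87% of all probe sets rose and 6.10% fell). It fell by 1.53 ± 0.42 with all arrays, by 0.75 ± 0.13 without P1 replicate 1 (SE, adjusted p = 0.02 and 3e-04 by limma), and by 1.48 without P4 replicate 4, where it was not called (0.055). Without P1 replicate 1, *Fasn*, *Acaca*, *Acly* and *Elovl6* rose and *Scd* and *Me1* fell, against 6.45% and 8.80% of all probe sets. At P4 against F22, *Fasn*, *Acly*, *Scd* and *Elovl6* fell and 0 rose, with a median of -0.87 over the 7 (16.5% of all probe sets rose and 23.8% fell). Without P1 replicate 1, *Acaca* fell as well.

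At P90, 6 fatty acid enzymes rose against P4 and 1, *Elovl6*, fell, with a median of 2.31 (28.8% of all probe sets rose and 27.1% fell). *Fasn* averaged 11.67 at P90 and 9.35 at P4 (2.31 ± 0.17, SE, adjusted p = 2.9e-11 by limma). *Elovl6*, the elongase that lengthens palmitate, averaged 8.50 at P90 and 9.67 at P4, a fall of 1.17 ± 0.19 (adjusted p = 1.9e-05 by limma). The same 6 and 1 were called at P90 against F22 (39.3% of all probe sets rose and 31.6% fell), where *Elovl6* fell by 2.04 ± 0.19 (adjusted p = 2.4e-09 by limma).

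Related genes of liver lipid handling, taken from lists that hold no member, were counted beside these. Of 14 genes of sterol uptake, storage and efflux, 8 rose and 3 fell at P1 against F22 (14.8% and 21.9% of all probe sets) and 8 rose and 5 fell without P1 replicate 1, with *Nceh1*, a cholesterol ester hydrolase, averaging 10.42 at P1 and 8.33 at F22 (2.09 ± 0.16, SE). *Abcg5*, part of the canalicular sterol exporter, averaged 8.11 at P1 and 7.13 at F22 (0.98 ± 0.17, SE), and *Scarb1*, the receptor for high-density lipoprotein, rose by 0.79 ± 0.06. Of 8 measured genes in other sterol and isoprenoid steps, 0 rose and 4 fell (1 and 4 without this array), led by *Lbr*, which rests in the nuclear envelope and has sterol reductase activity (-0.60 ± 0.07, SE).

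Of 16 measured genes of further lipogenesis and NADPH supply, 6 rose and 7 fell at P1 against F22 (14.8% and 21.9% of all probe sets). Without P1 replicate 1, 4 rose and 7 fell (16.3% and 22.5%). At P90 against P4, 12 of them rose and 1 fell (28.8% and 27.1% of all probe sets). *Thrsp*, a lipogenic protein responsive to thyroid hormone, averaged 12.54 at P90 and 6.69 at P4 (5.84 ± 0.08, SE, adjusted p = 9.2e-25 by limma). *Scd2*, a second stearoyl-CoA desaturase, was the 1 that fell, with 8.00 at P90 and 9.78 at P4 (-1.77 ± 0.37, SE, adjusted p = 3e-04 by limma). Of 17 other regulators, 5 rose and 6 fell at P90 against P4, and *Mlxipl*, the carbohydrate response factor ChREBP, averaged 10.87 at P90 and 9.86 at P4 (1.01 ± 0.10, SE).

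Other cell types of liver moved over the same ages. Foetal liver forms blood, and 9 of 9 measured erythroid and 9 of 9 cell cycle markers fell at P1 against F22 (21.9% of all probe sets fell). The log2 of the summed erythroid signal lay between 15.48 and 15.52 at F16, 15.46 and 15.53 at F20, 15.04 and 15.31 at F22, 14.41 and 14.65 at P1, 14.69 and 14.88 at P4, and 10.55 and 10.72 at P90. That of the cell cycle list was 14.11 to 14.18, 14.07 to 14.08, 13.50 to 13.68, 12.47 to 12.62, 12.65 to 12.85 and 9.43 to 9.69 at the same ages. Of 9 macrophage markers, 9 rose both at F20 against F16 (median 0.95) and at F22 against F20 (median 0.74), and 7 and 6 of 10 hepatocyte markers rose in these steps. Of all probe sets 9.22% and 15.3% rose in them. At P1 against F22, 2 of 10 hepatocyte markers rose, near the 14.8% of all probe sets. The hepatocyte list lay between 16.42 and 16.44 at F22, 16.46 and 16.48 at P1, and 16.52 and 16.53 at P90. In P1 replicate 1 the erythroid sum was 14.65, the highest of the P1 arrays and below every F22 array, and the cell cycle sum was 12.48. The part of these cell types in the changes of the members was not tested.

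In muscle, 16 of 17 sterol enzymes fell at P1 against F22 (8.82% of all probe sets fell), and between 1 and 3 were called in each step before birth. *Acat2* had 11.25, 11.17, 11.25, 11.14 and 11.07 at F16, 10.95, 10.87, 10.95, 10.94 and 11.04 at F18, 10.92, 10.92, 10.90, 10.83 and 10.80 at F20, and 10.77, 10.96, 10.79, 10.72 and 9.93 at F22. After birth it had 10.01, 9.85, 9.94, 9.83 and 9.96 at P1, and 9.68, 9.77, 9.58, 9.64 and 9.71 at P4. All P4 arrays lay below all P1 arrays, and F22 replicate 5 was the 1 foetal array that lay in the P1 range.

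*Sqle* had 10.17, 10.12, 10.16, 10.03 and 10.15 at F16, 10.11, 10.14, 10.07, 10.05 and 10.18 at F18, 10.37, 10.38, 10.25, 10.22 and 10.22 at F20, and 10.40, 10.62, 10.52, 10.49 and 9.65 at F22. After birth its values were 9.85, 9.62, 10.23, 9.74 and 9.73 at P1, and 9.54, 9.74, 9.54, 9.57 and 9.70 at P4. The 4 other F22 arrays lay above every postnatal array. *Lss* had 9.78, 10.07, 10.004, 9.88 and 10.26 at F16, 10.16, 10.10, 10.03, 10.15 and 10.34 at F18, 10.20, 10.21, 10.15, 9.43 and 10.05 at F20, and 10.13, 10.47, 10.04, 9.97 and 9.54 at F22. At the postnatal ages it had 9.82, 9.64, 9.58, 9.74 and 9.66 at P1, and 9.42, 9.68, 9.34, 9.35 and 9.38 at P4. F16 replicate 1, F20 replicate 4 and F22 replicate 5 lay in the range of the postnatal arrays.

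*Nsdhl* had 10.61, 10.45, 10.55, 10.45 and 10.36 at F16, 10.24, 10.32, 10.33, 10.28 and 10.36 at F18, 10.33, 10.40, 10.31, 10.64 and 10.46 at F20, and 10.36, 10.62, 10.36, 10.44 and 9.80 at F22. The postnatal arrays read 9.88, 9.86, 9.90, 9.63 and 9.83 at P1, and 9.85, 10.02, 9.80, 9.99 and 10.14 at P4. *Sc5d* had 11.31, 11.20, 11.21, 11.21 and 11.15 at F16, 11.18, 11.08, 11.09, 11.22 and 11.24 at F18, 11.15, 11.19, 11.19, 11.07 and 11.10 at F20, and 11.12, 11.28, 11.13, 11.05 and 10.62 at F22. From P1 onwards it had 10.62, 10.58, 10.61, 10.49 and 10.61 at P1, and 10.63, 10.79, 10.58, 10.69 and 10.82 at P4. For both enzymes F22 replicate 5 was the only foetal array within the postnatal range.

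**Figure D3:**
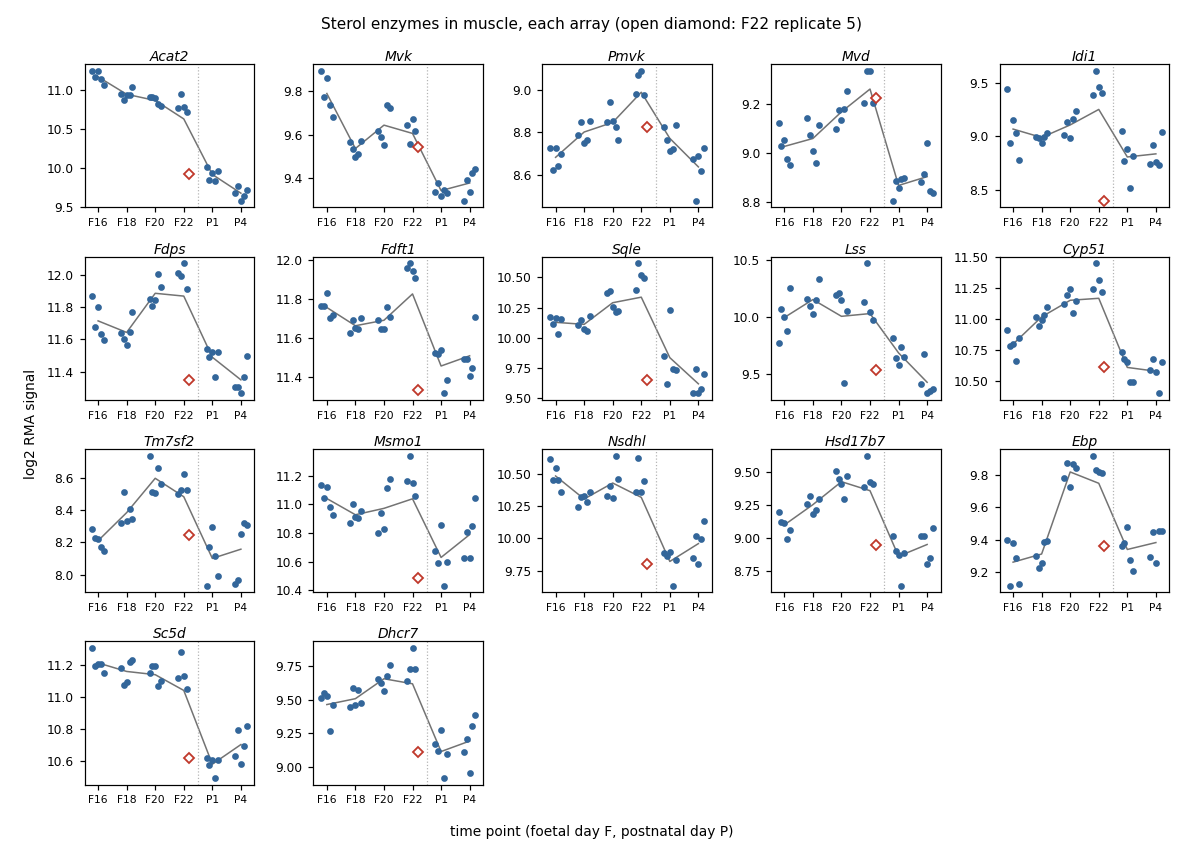
Log2 RMA signal (y axis) of the 17 measured sterol enzymes in each muscle array at 6 ages (x axis). Points are arrays, the grey line joins the group means, the open diamond is F22 replicate 5 and the dotted line marks birth; the *Acat2* arrays lie between 9.58 and 9.77 at P4 and, apart from F22 replicate 5 at 9.93, between 10.72 and 10.96 at F22.

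Before birth few muscle sterol enzymes were called. At F18 against F16, 0 rose and *Mvk*, mevalonate kinase, fell (14.1% of all probe sets rose and 19.3% fell), with 9.54 at F18 and 9.79 at F16 (-0.25 ± 0.05, SE, adjusted p = 5.6e-05 by limma). At F20 against F18, *Fdps*, *Tm7sf2* and *Ebp* rose and 0 fell (14.6% and 15.9% of all probe sets). *Ebp*, a sterol isomerase, averaged 9.82 at F20 and 9.31 at F18 (0.51 ± 0.08, SE, adjusted p = 1.5e-05 by limma). At F22 against F20, *Pmvk* rose and 0 fell (6.02% and 13.8%). *Pmvk* lost the call when 1 of several arrays of either age was left out, as without F22 replicate 3 (adjusted p = 0.13 by limma). Without F22 replicate 5, 3 rose, *Pmvk*, *Idi1* and *Fdft1*, and 0 fell (5.24% and 11.0% of all probe sets). *Fdps* and *Tm7sf2* each lost the call at F20 against F18 when 1 of several arrays was left out. Without F20 replicate 4, for instance, their adjusted p was 0.11 and 0.092 by limma.

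At P1 against F22, 0 sterol enzymes rose and 16 of 17 fell, with a median of -0.41, against -0.01 over all probe sets (9.50% of which rose and 8.82% fell). *Acat2* averaged 9.92 at P1 and 10.63 at F22, a fall of 0.72 ± 0.11 (SE, adjusted p = 1.7e-05 by limma), or 1.64-fold, and of 0.89 ± 0.05 without F22 replicate 5 (adjusted p = 4.1e-12). *Mvd* fell by 0.39 ± 0.05 (adjusted p = 7.4e-07), the smallest p of the set. *Lss* was the 1 that was not called, with 9.69 at P1 and 10.03 at F22. *Idi1* lost the call when 1 of several arrays of either age was left out, as without F22 replicate 2 (adjusted p = 0.12 by limma). Without F22 replicate 5, 17 of 17 fell and the median was -0.55 (9.84% of all probe sets rose and 10.7% fell).

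At P4 against P1, 1 sterol enzyme, *Pmvk*, fell and 0 rose (19.2% of all probe sets rose and 14.7% fell). *Pmvk* lost the call when 1 of several arrays of either age was left out, as without P4 replicate 2 (adjusted p = 0.15 by limma). At P4 against F22, 0 rose and 16 fell, with a median of -0.37 (21.2% rose and 16.6% fell), and *Msmo1*, a sterol methyl oxidase, was not called (10.79 at P4 and 11.04 at F22). *Acat2* averaged 9.68 at P4 and 10.63 at F22 (-0.96 ± 0.11, SE, adjusted p = 5e-08 by limma). *Idi1* lost the call when 1 of several arrays was left out, as without F22 replicate 2 (adjusted p = 0.099 by limma). Without F22 replicate 5 the count was 17 of 17 and the median -0.49 (22.1% of all probe sets rose and 18.0% fell).

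*Srebf2* stepped down in muscle too. Its values were 10.61, 10.81, 10.80, 10.59 and 10.90 at F16, 11.01, 10.86, 10.96, 10.98 and 11.01 at F18, 11.07, 10.96, 10.96, 10.86 and 10.97 at F20, and 11.01, 11.08, 11.17, 11.01 and 10.82 at F22. Its postnatal values were 10.79, 10.69, 10.75, 10.72 and 10.89 at P1, and 10.75, 10.77, 10.81, 10.65 and 10.67 at P4. The P4 arrays all lay below the F22 arrays, narrowly so for F22 replicate 5. *Srebf2* averaged 10.73 at P4 and 11.02 at F22 (-0.29 ± 0.06, SE, adjusted p = 0.00049 by limma).

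*Scap* had 9.69, 9.71, 9.76, 9.59 and 9.77 at F16, 9.90, 9.79, 9.81, 9.87 and 9.83 at F18, 9.87, 9.86, 9.86, 9.85 and 9.79 at F20, and 9.72, 9.60, 9.79, 9.76 and 9.74 at F22. After birth it had 9.59, 9.57, 9.63, 9.62 and 9.58 at P1, and 9.79, 9.86, 9.79, 9.76 and 9.77 at P4. The P1 arrays were the lowest group and did not overlap with P4. *Scap* rose by 0.20 ± 0.04 at P4 against P1 (SE, adjusted p = 0.00028 by limma).

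*Insig1* had 10.32, 10.01, 10.16, 9.80 and 10.16 at F16, 10.08, 10.28, 10.19, 9.93 and 10.11 at F18, 10.46, 10.50, 10.23, 10.78 and 10.77 at F20, and 10.93, 11.004, 11.03, 10.81 and 10.29 at F22. After birth its values were 11.04, 11.19, 10.98, 10.39 and 11.14 at P1, and 10.52, 10.57, 10.69, 10.69 and 10.88 at P4. F22 replicate 5 and P1 replicate 4 lay below the other arrays of their groups. *Insig2* had 9.001, 8.83, 9.08, 8.80 and 8.78 at F16, 8.86, 8.78, 8.96, 8.65 and 8.80 at F18, 9.02, 8.99, 8.80, 9.42 and 9.37 at F20, and 9.14, 9.03, 9.13, 9.19 and 9.07 at F22. At the postnatal ages it had 8.96, 9.01, 9.02, 8.75 and 9.04 at P1, and 9.33, 9.32, 8.95, 9.35 and 9.44 at P4. Neighbouring ages of *Insig2* overlapped in every step. *Insig2* rose by 0.32 ± 0.10 at P4 against P1 (SE, adjusted p = 0.011 by limma), and P4 replicate 3 lay in the P1 range.

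In muscle, 2 fatty acid enzymes rose and 4 fell at P4 against F22 (21.2% of all probe sets rose and 16.6% fell). *Scd* had 9.23, 8.84, 9.16, 8.84 and 9.11 at F16, 8.92, 9.05, 9.09, 8.73 and 9.09 at F18, 9.18, 9.16, 9.21, 9.29 and 9.36 at F20, and 9.25, 9.46, 9.54, 9.28 and 9.44 at F22. The postnatal arrays read 10.69, 10.98, 9.89, 9.32 and 10.66 at P1, and 11.05, 11.05, 10.70, 10.59 and 10.996 at P4. All P4 arrays lay above all foetal arrays, and the P1 arrays were spread between them, with P1 replicate 4 within the F22 range. *Scd* averaged 10.88 at P4 and 9.39 at F22 (1.48 ± 0.19, SE, adjusted p = 3.9e-07 by limma), a rise of 2.80-fold. At P1 against F22 it rose by 0.91 ± 0.19 (adjusted p = 0.00075 by limma).

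*Acacb* had 7.01, 7.14, 7.12, 6.94 and 7.27 at F16, 7.36, 7.25, 7.28, 7.28 and 7.20 at F18, 7.50, 7.42, 7.33, 7.57 and 7.63 at F20, and 8.10, 7.88, 8.19, 7.93 and 8.73 at F22. From P1 onwards it had 8.53, 8.69, 8.19, 8.39 and 8.74 at P1, and 8.86, 8.77, 8.51, 8.56 and 8.63 at P4. Before birth only the step at F22 against F20 was called, and F22 replicate 5 already lay in the postnatal range. *Acacb* averaged 8.17 at F22 and 7.49 at F20 (0.68 ± 0.12, SE, adjusted p = 0.00015 by limma), and the difference was 0.54 ± 0.09 without F22 replicate 5. *Acacb* rose by 0.50 ± 0.12 at P4 against F22 (adjusted p = 0.00097).

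*Me1* had 8.74, 8.29, 8.62, 8.40 and 8.51 at F16, 9.31, 9.63, 9.20, 9.38 and 9.38 at F18, 10.51, 10.22, 10.33, 10.29 and 10.34 at F20, and 10.04, 10.43, 10.19, 10.42 and 9.13 at F22. Its postnatal values were 9.98, 9.92, 10.06, 9.72 and 9.64 at P1, and 9.55, 9.60, 9.43, 9.78 and 10.002 at P4. Its arrays stepped up without overlap at F18 and again at F20, and F22 replicate 5 lay below the other F22 arrays and below every P1 array. *Me1* averaged 9.38 at F18 and 8.51 at F16 (0.87 ± 0.16, SE, adjusted p = 0.00011 by limma), and 10.34 at F20 against that F18 mean (0.96 ± 0.16, adjusted p = 4.1e-05).

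**Figure D4:**
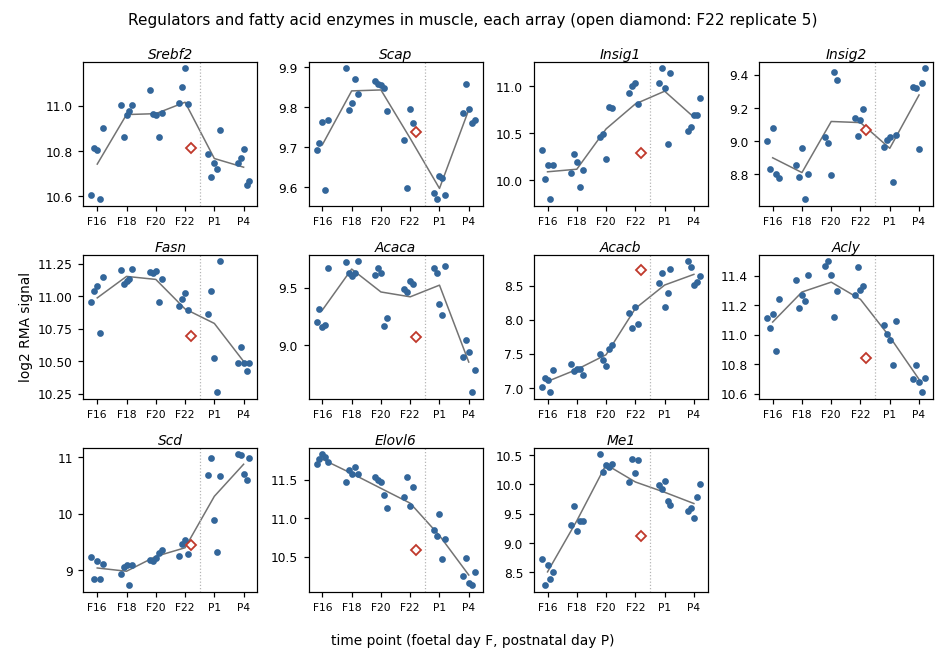
Log2 RMA signal (y axis) of the 4 measured regulators and 7 fatty acid enzymes in each muscle array at 6 ages (x axis). Points are arrays, the grey line joins the group means, the open diamond is F22 replicate 5 and the dotted line marks birth; the *Scd* arrays lie between 10.59 and 11.05 at P4 and between 9.25 and 9.54 at F22.

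Counted over the 7 enzymes, *Acaca* and *Me1* rose at F18 against F16, *Me1* at F20 against F18 and *Acacb* at F22 against F20, and 0 fell in these steps. Of all probe sets 14.1% rose and 19.3% fell at F18, 14.6% and 15.9% at F20, and 6.02% and 13.8% at F22. At P1 against F22, *Scd* and *Acacb* rose and *Acly* and *Elovl6* fell (9.50% of all probe sets rose and 8.82% fell). *Acacb*, *Acly* and *Elovl6* each lost the call when 1 of several arrays was left out, as without F22 replicate 2 (adjusted p = 0.13, 0.14 and 0.053 by limma). Without F22 replicate 5, 3 fell, *Me1* being the third (-0.40 ± 0.11, SE, adjusted p = 0.01 by limma), beside 9.84% and 10.7% of all probe sets. At P4 against P1, *Scd* rose and *Acaca*, *Acly* and *Elovl6* fell (19.2% of all probe sets rose and 14.7% fell). *Acaca*, the cytosolic acetyl-CoA carboxylase, averaged 8.85 at P4 and 9.52 at P1 (-0.67 ± 0.12, SE, adjusted p = 4.5e-05 by limma). The rise of *Scd* in that step, 0.57 ± 0.19 (adjusted p = 0.018), was not called without P1 replicate 3 (0.46, adjusted p = 0.067) or P1 replicate 4 (0.32, adjusted p = 0.089).

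At P4 against F22, *Scd* and *Acacb* rose, and *Fasn*, *Acaca*, *Acly* and *Elovl6* fell (21.2% of all probe sets rose and 16.6% fell). *Elovl6* averaged 10.26 at P4 and 11.19 at F22 (-0.93 ± 0.12, SE, adjusted p = 4.6e-07 by limma). Without F22 replicate 5, 2 rose and 5 fell, *Me1* joining those that fell (-0.60 ± 0.11, SE, adjusted p = 9.3e-05 by limma), beside 22.1% and 18.0% of all probe sets.

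Fat cell markers rose in muscle at P1 and at P4 against F22, as *Scd* did. Of 9 measured adipocyte markers, 7 rose and 0 fell at P1 against F22 (median 1.14), where 9.50% of all probe sets rose. At P4 against F22, 8 rose (median 1.15), beside 21.2% of all probe sets. At P4 against P1, where *Scd* was also called higher, 1 rose and 0 fell (median 0.01), beside 19.2% of all probe sets rising. Their summed log2 signal was 10.53 to 10.68 at F16, 10.70 to 10.85 at F18, 10.98 to 11.47 at F20, 11.33 to 11.91 at F22, 11.91 to 13.49 at P1 and 12.70 to 13.02 at P4. *Adipoq*, the adipocyte hormone adiponectin, had a median of 10.25 at P1 and 6.53 at F22, and *Ucp1*, the uncoupler of brown fat, had 6.46 at P1 and 6.52 at F22.

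Array by array at P1, the adipocyte sum was 13.02, 13.38, 12.44, 11.91 and 13.49 in replicates 1 to 5, where *Scd* was 10.69, 10.98, 9.89, 9.32 and 10.66. Replicates 3 and 4 were the lowest of the group in both. In F22 replicate 5 the sum was 11.91, the highest of its group, and *Scd*, at 9.44, lay inside its group's range. The part of fat cells in the *Scd* values was not tested. Myelin markers also rose at P4 against P1 (6 of 7, median 0.47, beside 19.2% of all probe sets). Their part in the changes of the members was not tested.

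Other cell types moved in muscle as well. Of 9 erythroid markers, 8 rose at P4 against P1 (median 1.502) and 8 at P4 against F22 (median 1.58), beside 19.2% and 21.2% of all probe sets. Their summed log2 signal was 14.31 to 14.58 at P4, 13.03 to 13.62 at P1 and 12.13 to 13.74 at F22. In F22 replicate 5 that sum was 12.13, and without this array 8 rose at P4 against F22 (median 1.15, beside 22.1% of all probe sets). Of 9 cell cycle markers, 0 rose and 5 fell at P1 against F22 (median -0.19, beside 8.82% of all probe sets falling). Without F22 replicate 5, 0 rose and 8 fell (median -0.25, beside 10.7%). The cell cycle sum was 13.45 to 13.86 at F22, with 13.45 in replicate 5, and 13.49 to 13.56 at P1. At F18 against F16, 4 of 4 keratinocyte markers (median 2.20) and 5 of 7 fibroblast markers (median 0.94) rose, beside 14.1% of all probe sets. Keratinocyte sums were 14.09 to 14.46 at F18 and 11.24 to 12.17 at F16, and fibroblast sums 15.37 to 15.42 at F18 and 14.54 to 14.83 at F16. The part of these cell types in the changes of the members was not tested.

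Of the related lists in muscle, sterol uptake, storage and efflux had 3 of 14 genes higher and 1 lower at P1 against F22 (9.50% and 8.82% of all probe sets), where *Abcg1*, a sterol exporter, averaged 9.73 at P1 and 8.95 at F22 (0.78 ± 0.11, SE) and *Npc1*, a lysosomal cholesterol transporter, fell by 0.32 ± 0.07. Of 8 other sterol and isoprenoid genes, 0 rose and 1, *Lbr*, fell (-0.14 ± 0.05, SE), with 2 lower without F22 replicate 5. Of 16 further lipogenic genes, 6 rose and 2 fell (6 and 3 without F22 replicate 5), with *Thrsp* averaging 9.27 at P1 and 7.33 at F22 (1.94 ± 0.33, SE) and *Lpin1*, a phosphatidate phosphatase, 9.09 at P1 and 7.80 at F22 (1.29 ± 0.18, SE). Of 17 other regulators, 3 rose and 2 fell, among them *Nfya*, a subunit of the CCAAT-binding factor NF-Y, with 8.57 at P1 and 9.21 at F22 (-0.64 ± 0.04, SE, adjusted p = 4.7e-11 by limma). In liver, at another step, *Nfya* fell by 0.45 ± 0.09 at F22 against F20 (adjusted p = 0.00036 by limma). Its part in the changes of the members was not tested.

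The change across birth, P4 minus F22, was then compared between the tissues in a fit of all 54 arrays. For the sterol enzymes it differed in 3 of 17 (14.4% of all probe sets were called higher in liver and 24.0% lower). *Sc5d* changed by 0.49 in liver and -0.34 in muscle, a difference of 0.83 ± 0.10 (SE, adjusted p = 5.3e-09 by limma). *Nsdhl* changed by 0.46 in liver and -0.36 in muscle (difference 0.82 ± 0.13, adjusted p = 1.5e-06), and *Tm7sf2* by 0.32 in liver and -0.32 in muscle (difference 0.65 ± 0.16, adjusted p = 0.0013), all by limma. For the other 14 the difference was not called, with estimates between -0.57 and 0.33. Without muscle F22 replicate 5, 4 enzymes differed, the fourth being *Ebp* (0.43 ± 0.17, SE, adjusted p = 0.034 by limma), beside 14.3% and 23.5% of all probe sets.

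In the fatty acid branch 3 of 7 differed, all lower in liver (24.0% of all probe sets). *Scd* changed by -1.54 in liver and 1.48 in muscle, a difference of -3.03 ± 0.45 (SE, adjusted p = 3.3e-07 by limma). *Fasn* fell by 1.06 in liver and by 0.40 in muscle (difference -0.66 ± 0.20, adjusted p = 0.0076), and *Acly* fell by 1.10 in liver and by 0.54 in muscle (difference -0.56 ± 0.19, adjusted p = 0.015), both by limma. Of the regulators, *Insig2* differed by 0.64 ± 0.17 and *Scap* by -0.22 ± 0.09 (SE, adjusted p = 0.0015 and 0.04 by limma). Leaving out single arrays ended the call of *Scap*, for instance liver P4 replicate 2 (-0.20, adjusted p = 0.088). Without muscle F22 replicate 5, 4 fatty acid enzymes were lower in liver, *Acacb* being the fourth (-0.44 ± 0.14), and *Me1* was higher (0.71 ± 0.16, SE, adjusted p = 0.011 and 0.00048 by limma).

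**Figure D5:**
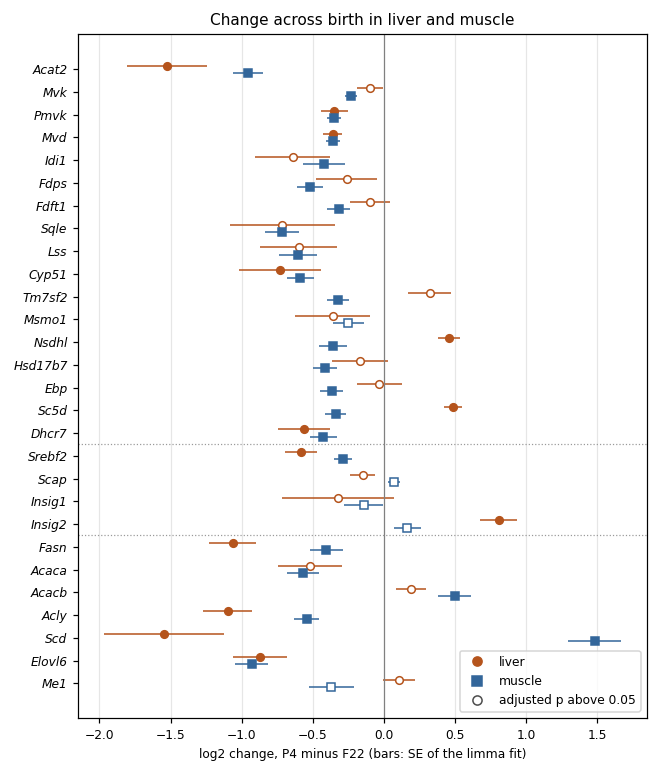
Log2 change, P4 minus F22 (x axis), of the 28 measured members (y axis) in liver (circles) and muscle (squares), with bars for the SE of the limma fit and open symbols for adjusted p above 0.05. Dotted lines part sterol enzymes, regulators and fatty acid enzymes; *Scd* lies at -1.54 in liver and 1.48 in muscle, and *Sc5d* at 0.49 in liver and -0.34 in muscle.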

How the data were processed

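Total RNA of liver and hind limb muscle was hybridised to Affymetrix GeneChip Rat Gene 1.0 ST arrays. The deposited values are log2 signals that the authors made by robust multi-array average in Affymetrix Expression Console (version not given in the sources used here), for liver and muscle apart. Such values compress low signals, and the number of arrays limits their precision. Probe sets with exactly 1 gene symbol in the platform annotation were kept (15310 of 29214, with 323 carrying several symbols and 13581 none), and where a gene had several probe sets the brightest over 54 arrays stood for it. The 6 groups of a tissue were fitted together with limma 3.58.1 in R 4.3.3 (lmFit, eBayes), p-values were adjusted by Benjamini and Hochberg over the 15310, and the tissue difference was fitted over all arrays. The fits were tested on simulated data. Per tissue, the 5 sterol enzymes and 3 fatty acid enzymes with the widest span of group means, and all regulators, were named array by array, and further members where a count turned on them. The members, lists and tests were chosen with earlier results of these data known. Alternatives were other normalisations and filters, the mean of a gene's probe sets, array weights, a trended variance prior, an unadjusted threshold, fewer time points, a replicate block and leaving out arrays. Replicate numbers did not pair the samples. The promoter windows came from RefSeq.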

Additional observations from a re-analysis of the deposited data

Results flagged for a closer look

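An array that lay far from the rest of its group was found in 18 of 144 groups of values looked at (12.5%). Chance alone flags about 1 in 20 groups if the groups are independent. These were not, because the genes share arrays and 1 odd array was counted for several genes, so the 2 rates cannot be compared. In the liver array P1 replicate 1 this held for *Acat2* (9.55, the nearest other P1 array being 7.59), *Sqle* (10.53, nearest 8.02), *Lss* (10.17, nearest 8.43), *Scd* (11.28, nearest 8.37), *Acacb* (7.40, nearest 7.08) and *Me1* (7.22, nearest 7.71). In liver at P4 it held for *Srebf2* in replicate 2 (9.80, nearest 9.56), *Insig1* in replicate 3 (11.98, nearest 10.89) and *Insig2* in replicate 1 (9.36, nearest 9.11).

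In the muscle array F22 replicate 5 it held for *Acat2* (9.93, nearest 10.72) and *Sqle* (9.65, nearest 10.40). In other muscle arrays it held for *Lss* in F20 replicate 4 (9.43, nearest 10.05) and P4 replicate 2 (9.68, nearest 9.42), *Scap* in F20 replicate 5 (9.79, nearest 9.85) and *Insig2* in P4 replicate 3 (8.95, nearest 9.32). In P1 replicate 4 it held for *Nsdhl* (9.63, nearest 9.83), *Insig1* (10.39, nearest 10.98) and *Insig2* (8.75, nearest 8.96).

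The change across birth, P4 minus F22, differed between the tissues for 8 of the 28 measured members in the limma fit over both. Of all probe sets, 14.4% were called higher in liver and 24.0% lower. The difference, liver minus muscle, was 0.65 for *Tm7sf2*, 0.82 for *Nsdhl*, 0.83 for *Sc5d* and 0.64 for *Insig2*. It was -0.22 for *Scap*, -0.66 for *Fasn*, -0.56 for *Acly* and -3.03 for *Scd*.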

How the results depend on the processing

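Of 258 counts of called members under the other settings, 221 stayed within 1.5 times the reported count, and of 1645 called changes 1594 kept their call, 51 lost it and 0 reversed. The causes were not tested. Shares of all probe sets called are given above only for the reported fits and those without P1 replicate 1 or F22 replicate 5. For the other settings, the counts therefore do not tell whether the members moved more than other genes. Under the threshold without adjustment no call could be lost, because an adjusted p is never below its unadjusted p. The mean of a gene's probe sets left the values of the sterol and fatty acid enzymes as they were. Among the members only *Insig1*, a regulator, had another probe set. With the 5 time points of the study only, liver F20 against F16 had 4 sterol enzymes called and not 7, muscle P1 against F22 had 2 fatty acid enzymes and not 4, and muscle F22 against F20 and P4 against P1 had 0 sterol enzymes and not 1. With array weights the sterol counts were 11 at liver F20 against F16, 13 at P4 against P1 (reported 3), 11 at P4 against F22 (reported 7), 8 for the tissue difference (reported 3), 5 at muscle F18 against F16, F20 against F18 and F22 against F20 (reported 1, 3 and 1), and 2 at P4 against P1. With array weights the fatty acid counts were 2 at liver F20 against F16 (reported 1), 5 at F22 against F20 (reported 3), 3 at P4 against P1 (reported 1) and 5 for the tissue difference (reported 3). Where the threshold was applied to limma's p-values without adjustment, the fatty acid counts were 5 at liver F22 against F20 and 2 at P4 against P1, and the sterol counts 10 at liver P4 against P1, 5 at muscle F18 against F16, 6 at F20 against F18, 2 at F22 against F20 and 2 at P4 against P1. With arrays centred on their medians, muscle F20 against F18 had 1 sterol enzyme and P4 against P1 had 2. With quantile normalisation repeated, muscle F18 against F16 and P4 against P1 had 2. With probe sets above the median signal only, muscle F18 against F16 had 2 sterol enzymes and F22 against F20 had 0 fatty acid enzymes (reported 1). With a trended, robust eBayes, muscle F22 against F20 had 0 sterol enzymes. With the replicate number as a block, muscle F22 against F20 and P4 against P1 had 0 sterol enzymes and not 1, and the numbers did not pair the samples, with correlations of their deviations between -0.31 and 0.363. Without 4 muscle arrays together (F16 replicate 5, F20 replicates 4 and 5 and F22 replicate 5, chosen after seeing the data), the sterol counts were 6 at muscle F18 against F16, 3 at F22 against F20 and 5 at P4 against P1. Without these and liver P1 replicate 1, the tissue difference had 8 sterol and 5 fatty acid enzymes.

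Leaving out 1 array at a time, the sterol count ranged over 3 to 5 at liver F20 against F16, 1 to 15 at liver P4 against P1 (15 without P1 replicate 1), 5 to 13 at liver P4 against F22 (13 without P1 replicate 1, added after seeing the data), 1 to 4 at muscle F20 against F18, 0 to 3 at muscle F22 against F20 (3 without F22 replicate 5) and 0 to 1 at muscle P4 against P1. The fatty acid count ranged over 0 to 1 at liver F20 against F16, 3 to 6 at liver P1 against F22 (3 without F22 replicate 3), 0 to 6 at liver P4 against P1 (0 without P4 replicate 4, 6 without P1 replicate 1), 1 to 5 at muscle P1 against F22 and 3 to 5 for the tissue difference (5 without muscle F22 replicate 5). Of 1681 called changes, 1505 kept their call, 176 lost it and 0 reversed. Signals near the low end, such as *Acacb* in foetal liver, have the least room to show a fall.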
